A study of Mus musculus with 21 samples.

Results

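The binding of CREB1(A297V), a mutant of the transcription factor CREB1, was measured on protein binding microarrays, and DNA made with 5-methylcytosine (5mC) was compared with DNA made with cytosine (C). The comparison took the 4 arrays of this protein on these DNA forms, 2 on 5mC and 2 on C, out of 21 arrays in the series, and all sequences of 8 bases (8-mers) that a probe carried. They were chosen by their labels and not by any measured value. The protein was the bZIP DNA-binding domain of CREB1, given valine in place of alanine by site-directed mutagenesis, with GST fused to its N-terminus, and it was made outside cells with a PURExpress transcription and translation kit. The labels give the organism as Mus musculus and the label as Cy5. An array of single-stranded probes was made double-stranded by primer extension with one form of cytosine, so on the 5mC arrays only the newly made strand held 5mC and the printed strand kept plain cytosine. The DNA was thus hemi-methylated at every C of the new strand, in CG and outside it. The other proteins used for comparison were CREB1 itself and CEBPB(V285A), a CEBPB mutant with the opposite exchange, each as the same kind of domain. CREB1 had 2 arrays on C and 1 on 5mC, and CEBPB(V285A) had 2 on each. The fits also drew their spread from the remaining arrays of the series. These held DNA made with 5-hydroxymethylcytosine (5hmC), bound by CREB1, CREB1(A297V), CEBPB(V285A) or CEBPB itself. The labels do not say whether the replicates used separate batches of protein. In the main fits the p-values measure only the spread between replicate arrays, pooled over all 21 arrays, which may be technical.

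CREB1 and the C/EBP proteins are bZIP factors, which bind DNA as dimers whose basic helices each read one side of a short site. The cyclic AMP response element (CRE) TGACGTCA is the classical CREB site, TTGCGCAA is the C/EBP site, and TTACGTAA is the site of the PAR family of bZIP factors. The 5-methyl group of 5mC lies in the major groove, as that of thymine does.

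Each 8-mer had a Z-score per array, deposited by the authors, which ranks it within that array around a median near 0 and has no common unit between arrays. It follows that a difference in Z is a change of relative preference, not of affinity. Of 65535 deposited 8-mers, 65126 had at least 1 probe and were tested, with a median of 17 probes. The 4 arrays had 40330 spots each. Median spot intensities were 1470 and 1857 on the C arrays and 1859 and 2358 on the 5mC arrays, against local backgrounds of 556, 1110, 1420 and 1778 in that order. The share of spots brighter than their local background was 98.3% and 97.0% on C, and 76.9% and 83.8% on 5mC, so fewer dim spots stood above background on 5mC. The part of this background in the results was not tested. Across 8-mers, Z-scores correlated at 0.782 between the C arrays, 0.733 between the 5mC arrays, and 0.633 to 0.744 between a C and a 5mC array.

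The sites on which the comparison turned are given first, as the newly made strand, 5′ to 3′, with each C that was 5mC on the 5mC arrays in capitals. They are shown because the results describe them most fully: the larger called rises and falls, and the PAR, CRE and C/EBP-type sites beside which they are read, called or not. That the printed strand was the template of the new one was assumed and not tested; otherwise every 8-mer is its reverse complement. Base 1 is the 5′ base in all that follows.

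PAR palindrome: ttaCgtaa
PAR palindrome, T1C: CtaCgtaa
T1C of the palindrome with C/EBP core GCAA: CtaCgCaa
Riser with G at base 3: CtgCgtaa
Riser without CG: Ctaggtaa
Riser with T at base 3: CttCgtaa
Riser ending in T: atCgtaat
CRE palindrome: tgaCgtCa
PAR side with CRE core: ttaCgtCa
CRE side with PAR core: tgaCgtaa
Faller 1: ttaCgaCa
Faller 2: ttaCCtaa
Faller 3: tgtCgaCa
Faller 4: ttaCaCat
Faller 5: ttaCaCaC
Faller 6: ttaCCtCa

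On 5mC, CREB1(A297V) gained relative preference for some GTAA sites that start with CT, and lost it for some sites that hold TTAC. CRE-type sites read lower without being called, and the PAR palindrome was the top 8-mer on every array. With limma over all 21 arrays, 26 8-mers were called at an adjusted p under 0.05, which is 0.0399% of those tested. Of these 19 rose (0.0292%) and 7 fell (0.0107%). With Z-scores from log2 foreground the split was 64 higher and 8 lower, with 12 of the 26 still called. From the foreground it was 58 and 10, with 14 of the 26 still called. The 5mC and C arrays did not overlap in any of the 26, which were chosen by this same contrast. Over all 8-mers, both 5mC arrays were above both C arrays in 23.2% and below them in 19.1%. Without adjustment, 6215 8-mers had p under 0.05. Neighbouring 8-mers share probes, so the calls are not independent of each other. Leaving out C replicate 2 or 5mC replicate 2 left far fewer calls, all of them falls. Without C replicate 1 there were fewer calls, with more falls than rises, and not all were among the 26. Without 5mC replicate 1 there were more calls. Each of these fits has 1 array in a group. Arrays of other groups moved the count through the shared spread, to 17 without any one of the CREB1 or CEBPB arrays on 5hmC and to 56 without CREB1(A297V) 5hmC replicate 1. The array names carry a number that is read here as a run, though the labels do not say what it stands for. A fit on the 9 arrays that share 1 such number, these 4 included, called 0 (5613 at an unadjusted p under 0.05), and a fit on the 4 arrays alone called 1.

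**Figure D1:**
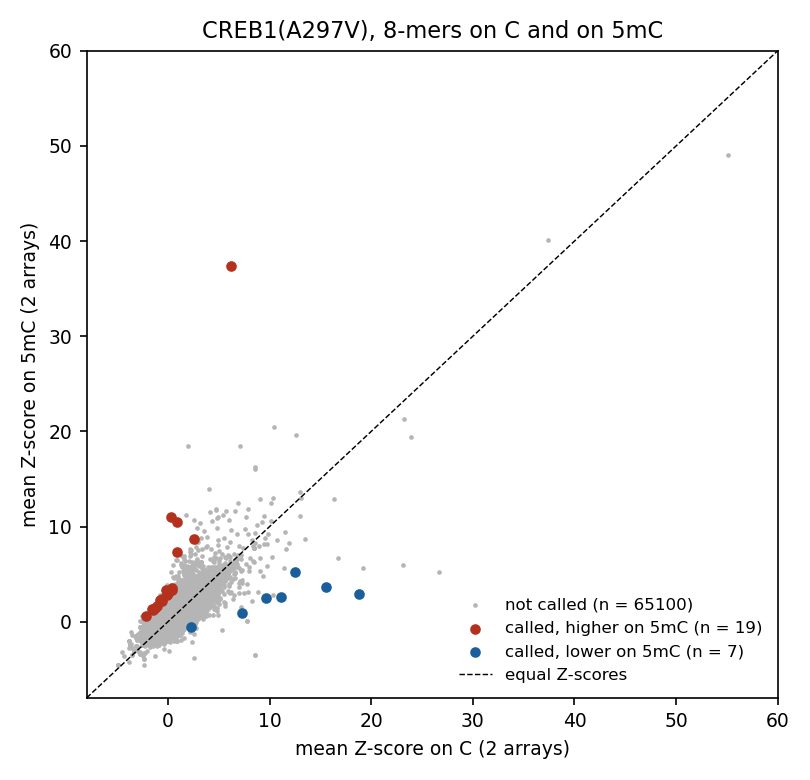
Mean Z-score of each of 65126 8-mers on C (x axis, mean of 2 arrays) against its mean on 5mC (y axis, mean of 2 arrays) for CREB1(A297V), with the 19 risers and 7 fallers coloured. Most 8-mers lie near 0 on both axes, CTACGTAA is the riser that moves furthest from the diagonal, and TTACGTAA lies at the top on both.

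The largest rise was at CTACGTAA, which is the PAR palindrome with T1C. Its Z-scores were 4.92 and 7.53 on C and 28.6 and 46.1 on 5mC, so both 5mC arrays lay far above both C arrays. The mean rose by 31.2 (95% confidence interval 19.6 to 42.7, adjusted p = 0.039). Its rank among all 8-mers moved from 268 and 94 on C to 3 and 2 on 5mC. The call was lost without C replicate 1 (adjusted p = 0.237), without C replicate 2 (0.411) and without 5mC replicate 2 (0.437), and in the run-only fit (0.329), with the rise between 22.4 and 39.9 over the left-out arrays.

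The other risers of more than 5 in Z also held GTAA. CTGCGTAA went from 0.0503 and 0.558 to 7.21 and 14.9, a rise of 10.7 (6.93 to 14.5, adjusted p = 0.027). CTAGGTAA, which holds no CG, went from 0.126 and 1.66 to 7.15 and 13.8, a rise of 9.59 (6.39 to 12.8, adjusted p = 0.0194). Both lay near the median of all 8-mers on C replicate 1, and on the 5mC arrays they ranked 65 and 22, and 67 and 29. CTTCGTAA went from -0.256 and 1.96 to 5.15 and 9.51 (rise 6.47, adjusted p = 0.0246), and ATCGTAAT from 2.42 and 2.67 to 7.65 and 9.67 (rise 6.11, adjusted p = 0.0081). In each of these the increase was larger on 5mC replicate 2 than on replicate 1. The 4 calls were lost without C replicate 1 (adjusted p from 0.0966 to 0.237), C replicate 2 (0.105 to 0.377) or 5mC replicate 2 (0.301 to 0.489).

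CTACGCAA, the same front with the C/EBP core GCAA, went from 1.87 and 2.13 on C to 12.6 and 24.3 on 5mC. Its arrays did not overlap, and its rank moved from 4875 and 2796 to 10 and 6. The difference of 16.5 was not called (-9.51 to 42.4, adjusted p = 0.72). The fit uses 1 spread per 8-mer for all groups. The CEBPB(V285A) replicates of this 8-mer on 5mC, at 181 and 198, stood further apart than those of CREB1(A297V). The part of this gap in the interval was not tested.

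**Figure D2:**
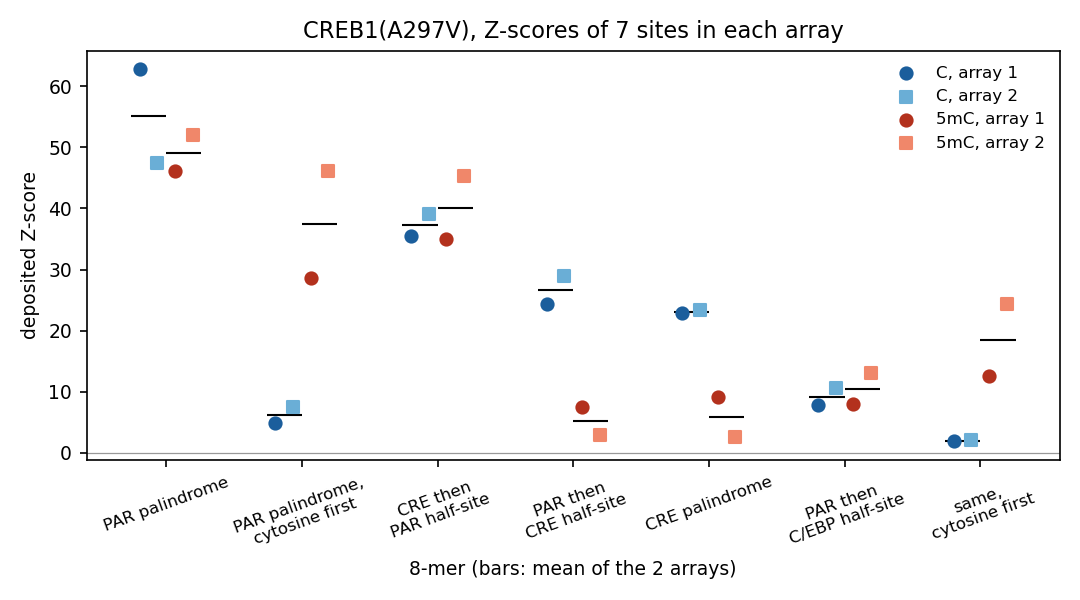
Z-scores of 7 sites on each of the 4 CREB1(A297V) arrays (y axis, Z-score; points are arrays, bars are means of 2 arrays, C and 5mC in separate colours). The PAR palindrome with cytosine first (CTACGTAA) goes from 4.92 and 7.53 to 28.6 and 46.1, the CRE palindrome from 23.0 and 23.3 to 9.18 and 2.68, and the arrays of the PAR palindrome overlap.

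Base 1 was followed in the 16 pairs of 8-mers that differ only in T or C at base 1, followed by T, any 2 bases and GTAA. These pairs were chosen after the values were seen and have no test. With C at base 1, the difference was above 0 in 15 of 16 (median 1.482). With T it was above 0 in 10 of 16 (median 0.31). On C arrays the C form stood below its T partner in 15 of 16 pairs, and on 5mC arrays in 11 of 16. The median level of the C forms went from 1.07 to 3.58 and that of the T forms from 3.26 to 3.74. TTAGGTAA, for example, had 11.9 and 14.1 on C and 7.66 and 14.6 on 5mC, which overlap, while its partner CTAGGTAA on 5mC came to 7.15 and 13.8. CTATGTAA (1.49 and 1.36 to 4.49 and 9.40) and CTCCGTAA (1.36 and 1.14 to 3.88 and 8.08) did not overlap either, and neither was called (adjusted p = 0.202 and 0.132).

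The C just before the GTAA core was the other position at which 5mC went with higher values. Among 63 8-mers with C at base 4 before GTAA, the median difference was 1.82, against 0.065 over all 8-mers. Both 5mC arrays were above both C arrays in 45 of the 63 and below them in 0, where the background is 23.2% above and 19.1% below. CTACGTAA, CTGCGTAA and CTTCGTAA are its 3 called members. With T, A or G at base 4 the medians were 0.56, 0.25 and 0.20. At base 1 of GTAA 8-mers, C had a median of 1.30 (57 of 63 above 0), against 0.31 to 0.38 for the other bases, and at bases 2 and 3 C had 0.79 and 0.71. The 64 reverse complements of the C-before-GTAA list, in which the modified strand reads TTACG, had a median of -0.066, with 15 above and 15 below. The median of the C-before-GTAA list was above 0 under every scaling tried and without each of the 4 arrays (0.63 to 2.54, and 0.98 without 5mC replicate 2), and that of its reverse complements changed sign among them (-0.23 to 0.18).

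Values also differed with the base after the core, in lists made after they were seen. The 255 8-mers with CGTAA anywhere had a median difference of 2.15 (1.18 without 5mC replicate 2), and 74.9% of them had both 5mC arrays above both C arrays. Those with CGTAA followed by T (48) had a median of 4.90, with 44 above, followed by C 2.65, by A 1.73 and by G 1.36. The median with T after the core became 2.38 without 5mC replicate 2, 7.48 without 5mC replicate 1, 1.98 after normexp and 13.4 with quantile normalization. Examples from the top of the 5mC ranking are TCGTAATA, which went from 7.02 and 7.24 to 14.3 and 22.7 (difference 11.4, adjusted p = 0.119), and TACGTAAC, from 8.44 and 12.5 to 15.6 and 25.3 (adjusted p = 0.738). ACGTAATT went from 7.68 and 9.53 to 12.8 and 19.7 (adjusted p = 0.584). In these 3 the arrays did not overlap, and none was called.

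The C/EBP core had a smaller shift of the same sign. The 64 8-mers with C before GCAA had a median difference of 0.809, with 34 above and 2 below, and their reverse complements 0.027. The first median was 0.453 without 5mC replicate 2 and 1.25 without 5mC replicate 1. CTACGCAA was the highest of them on both 5mC arrays. TTGCGCAA, the C/EBP palindrome, had 1.47 and 1.92 on C and 3.19 and 5.13 on 5mC, which do not overlap and were not called (adjusted p = 0.973). Of its 24 single-base changes, 13 were above, 1 below and 10 overlapped, and none was called. Over all 8-mers 23.2% were above and 19.1% below.

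The other 14 risers moved by less, between 2.66 and 3.56, from Z-scores on C that were mostly around or below 0. GCTACATA went from -0.152 and -0.234 to 2.91 and 3.82 (rise 3.56, adjusted p = 0.0081), the largest of these. CCACTACA went from 0.317 and 0.386 to 3.19 and 3.89, CGCTACAA from 0.0292 and 0.0074 to 2.43 and 3.69, and ACCACTAC from 0.146 and -0.205 to 2.71 and 3.29. These share CTAC, which 9 of the 19 risers hold, CTACGTAA included, against 1.94% of all 8-mers. CTAC or CGTAA was held by 13 of the 19, against 2.33%. The remaining 6 were CTAGGTAA, CTTCGAAA, CCAACTGC, CACGGACT, CTCGCCGC and CAAAGTGG. All 19 hold at least 1 C, as do 89.9% of all 8-mers.

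CTAC itself moved beyond the called 8-mers. The 1264 8-mers that hold it anywhere, a list made after seeing the values, had a median difference of 0.908, with 57.8% above and 2.45% below. The 1271 that hold its reverse complement GTAG had 0.0059, with 21.2% above and 20.4% below. The CTAC median was between 0.56 and 1.21 under every scaling and left-out array, and lowest without 5mC replicate 2. Levels stayed low: the medians of the CTAC list were -0.167 and 0.0295 on C and 0.423 and 1.14 on 5mC.

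**Figure D3:**
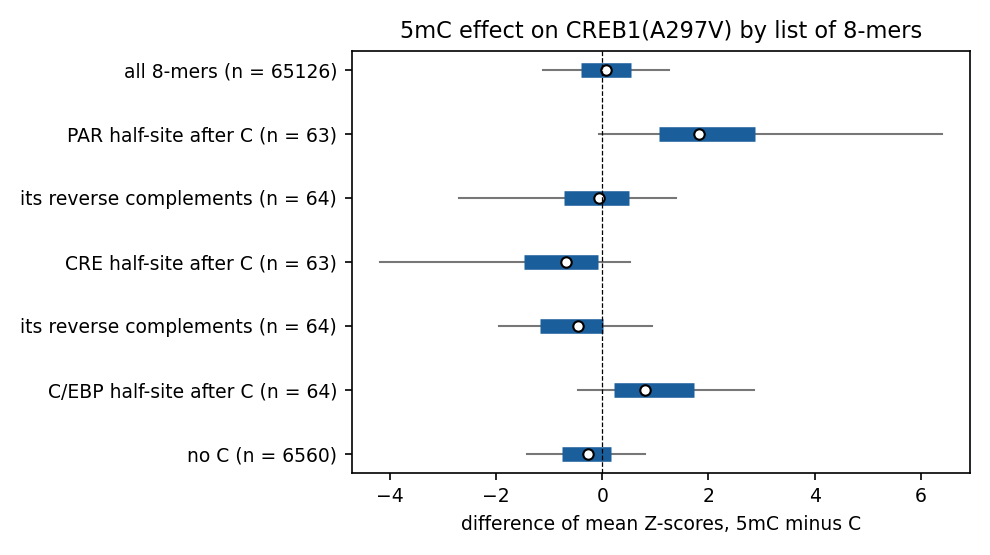
Difference in Z-score, 5mC minus C, for lists of 8-mers (x axis, difference of the means of 2 arrays; white dot, median; thick bar, quartiles; thin line, 5th to 95th percentile). The rows are the PAR, CRE and C/EBP cores after C, reverse complements of the first pair, and 8-mers without C. C before the PAR core GTAA (1.82) lies to the right of all 8-mers (0.065), and C before the CRE core GTCA (-0.69) to the left.

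The falls began at sites with high Z-scores on C. TTACGACA, the PAR front with a changed right side, went from 14.3 and 23.2 on C to 3.69 and 2.13 on 5mC, and fell by 15.9 (-19.4 to -12.3, adjusted p = 1.5e-04). TTACCTAA went from 13.8 and 17.2 to 4.74 and 2.64 and fell by 11.8 (-14.7 to -9.0, adjusted p = 2.4e-04). TGTCGACA went from 9.61 and 12.7 to 3.35 and 1.79 and fell by 8.57 (adjusted p = 1.5e-04). Their C arrays ranked them between 7 and 27, and their 5mC arrays between 224 and 5563.

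TTACACAT (11.8 and 13.3 to 6.12 and 4.33) fell by 7.30, TTACACAC (10.1 and 9.22 to 2.49 and 2.51) by 7.17 and TTACCTCA (6.20 and 8.29 to 1.07 and 0.759) by 6.33. The seventh faller, TGTGGATA, holds no C on the modified strand and went from 2.67 and 1.95 to -1.05 and -0.0475 (adjusted p = 0.039). TTAC was held by 5 of the 7, against 1.96% of all 8-mers, and each of these 5 has at least 1 C beyond that of TTAC. All 8-mers with TTAC at bases 1 to 4 were split by the C in bases 5 to 8, in lists made after seeing the values. Their median difference was -0.163 with 0 C (81 8-mers, 12 above and 21 below) and 0.199 with 1 (108, 32 and 22). It was 0.503 with 2 (54, 23 and 4) and 0.927 with 3 (11, 7 and 0). Called falls in these lists were 0, 3, 2 and 0, against 0.0107% of all 8-mers. Over all 8-mers the median rose as well, from -0.096 with 1 C to 0.358 with 4. The part of a further C in the falls was not tested. TTACGACA, TTACCTAA, TGTCGACA, TTACACAC and TTACCTCA were called without each of the 4 arrays in turn. TTACACAT lost its call without C replicate 2 (adjusted p = 0.051) or 5mC replicate 2 (0.122). A related site just outside the calls, ATTACACA, went from 15.5 and 17.9 to 7.34 and 6.02 (difference -10.0, adjusted p = 0.082).

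The CRE palindrome and close relatives were lower on both 5mC arrays, though not called. The CRE palindrome TGACGTCA had 23.0 and 23.3 on C and 9.18 and 2.68 on 5mC, a difference of -17.2 (-46.0 to 11.6, adjusted p = 0.74). TTACGTCA, with the PAR sequence on one side and the CRE core on the other, went from 24.4 and 28.9 to 7.54 and 2.97, a difference of -21.4 (-45.6 to 2.77, adjusted p = 0.58), and its rank from 3 and 3 to 58 and 1455. TGACATCA went from 21.5 and 16.9 to 6.59 and 4.74 (difference -13.5, -22.2 to -4.92, adjusted p = 0.265). In all 3 the arrays do not overlap. The fit uses 1 spread per 8-mer for all proteins. TGACGTCA read 213 and 177 on the CREB1 arrays on C, and TTACGTCA read 185 and 149 on the CEBPB(V285A) arrays on C. The part of these in the intervals was not tested.

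The 63 8-mers with C before the CRE core GTCA had a median difference of -0.69, with 5 above and 29 below, and their 64 reverse complements -0.447, with 5 above and 22 below. Both medians were below 0 under every scaling and left-out array, but their size was not stable: without C replicate 2 they were -0.33 and -0.161, and without C replicate 1 -1.02 and -0.755. Of the 24 single-base changes of the CRE palindrome, 12 had both 5mC arrays below both C arrays, 12 overlapped and 0 were above. Over all 8-mers 23.2% were above and 19.1% below. None of the 24 was called. TGACGACA (T6A) went from 8.10 and 12.5 to 4.18 and 1.37, and TGTCGTCA (A3T) from 5.83 and 4.10 to 1.5 and -0.144 (adjusted p = 0.0516, just outside the threshold).

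The PAR palindrome TTACGTAA was first in each of the 4 arrays, with 62.8 and 47.5 on C and 46.1 and 52.0 on 5mC. The values overlap, and the difference of -6.07 (-21.6 to 9.45, adjusted p = 0.853) was not called. Its sign depended on the scaling and on C replicate 1, without which it was 1.57. TGACGTAA, second on both C arrays, had 35.6 and 39.1 on C and 35.01 and 45.2 on 5mC (difference 2.77, -44.8 to 50.4). TGTCGTAA also overlapped, with 22.4 and 24.2 on C and 18.0 and 24.6 on 5mC. TTACATAA was somewhat lower on 5mC, with 22.9 and 24.9 on C and 16.6 and 22.2 on 5mC (adjusted p = 0.917). A C on the modified strand just before GTAA was thus present both in sites that rose and in sites whose arrays overlapped.

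Of the remaining fixed sites, TTGCGTAA read 8.76 and 9.27 on C and 9.71 and 16.0 on 5mC, and TTGCGTCA read 3.25 and 6.03 on C and 1.36 and 1.26 on 5mC. Both did not overlap and were not called (adjusted p = 0.931 and 0.864). TTACGCAA (7.81 and 10.6, then 7.94 and 13.1), TGACGCAA (5.93 and 7.97, then 6.68 and 9.14), TGATGCAA (2.09 and 2.66, then 3.83 and 2.12) and TTGCATCA (1.02 and 1.29, then 1.98 and 0.22) overlapped. For these 4 and for TGACGTAA the sign of the difference changed when single arrays were left out.

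The 24 single-base changes of the PAR palindrome went both ways. In 6 both 5mC arrays were above both C arrays (25%), in 7 below (29.2%), and 11 overlapped. These shares are near those over all 8-mers, 23.2% above and 19.1% below, so the counts set this list little apart. T1C was called up and G5C (TTACCTAA) down. T2C (TCACGTAA) had 3.41 and 3.93 on C and 5.23 and 5.73 on 5mC (adjusted p = 0.837), and A3C (TTCCGTAA) 2.31 and 2.88 on C and 3.56 and 4.72 on 5mC (adjusted p = 0.543). T6C, the C/EBP core version TTACGCAA, overlapped. A7C (TTACGTCA) was lower in both arrays, while A8C (TTACGTAC), with 2.08 and 3.41 on C and 2.77 and 1.85 on 5mC, overlapped. Changes that add no C were among the non-overlapping ones too. T1G, A3G and A3T were above, and C4A, G5A, T6A, A7T and A8T below, none of them called. Without C at base 4, C4T (TTATGTAA) had 6.40 and 8.45 on C and 5.58 and 9.85 on 5mC, and C4G (TTAGGTAA) overlapped as well.

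Because the modified base lies on one strand only, an 8-mer and its reverse complement are the same double-stranded site with 5mC on opposite strands. The difference between the orientations changed in 10 of 32230 pairs (0.0310%), 7 of them upwards (0.0217%) and 3 downwards (0.00931%), in the orientation named. The arrays did not overlap in 42.9% of all pairs. CTACGTAA minus its reverse complement TTACGTAG was -1.34 and -3.05 on C and 23.4 and 38.8 on 5mC, a change of 33.3 (26.2 to 40.4, adjusted p = 1.5e-04). TTACGTAG itself had 6.26 and 10.6 on C and 5.17 and 7.38 on 5mC, which overlap. The site thus read about alike in both orientations on C and was far higher on 5mC when the modified strand read CTACGTAA. This call held without each of the 4 arrays (adjusted p from 1.7e-06 to 0.0164), in the run-only fit (5.4e-04) and in the fit of the 4 arrays (0.0381), and was lost on the asinh scale (0.204).

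Most other orientation changes involved CGTAA as well. CTAGGTAA minus TTACCTAG rose by 10.8 (adjusted p = 0.0091), CAACGTAA minus TTACGTTG by 10.5 (0.0401), CTTCGTAA minus TTACGAAG by 6.69 (0.0385) and ATCGTAAT minus ATTACGAT by 6.55 (0.0014). CAACGTAA read 3.83 and 4.17 on C and 9.80 and 18.1 on 5mC. The downward changes are the same pattern read from the other strand: TATTACGA minus TCGTAATA fell by 12.9 (adjusted p = 0.0091), ATTACGAA minus TTCGTAAT fell by 8.33 (0.0147) and ACGTTACG minus CGTAACGT fell by 6.14 (0.0385). Of these 7 further changes, ATCGTAAT was called without either C array, and no other was; without 5mC replicate 2 none of the 7 was called (adjusted p from 0.111 to 0.529). TGACGTAA minus TTACGTCA was 11.2 and 10.2 on C and 27.5 and 42.3 on 5mC, and was not called (change 24.2, adjusted p = 0.859). Across the 1272 pairs with GTAA or TTAC, the 8-mer and its reverse complement correlated at 0.592 and 0.738 on the C arrays and 0.377 and 0.312 on the 5mC arrays, across 8-mers that share probes. Over all 32230 pairs the correlations were 0.207 and 0.324 on C and 0.223 and 0.289 on 5mC. The part of the few pairs with high Z-scores, such as those just named, in these Pearson correlations was not tested.

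The probes behind these values were examined one by one. A probe has 35 bases, given here as the newly made strand, 5′ to 3′, with 1 of its 8-mers in capitals: the one with the highest mean Z-score over the 4 arrays for the brightest, on 5mC for the rises and on C for the falls. They are shown because each holds its site in a different flank. The first is the brightest, and the others are those with the largest measured changes among the called rises and falls.

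Brightest: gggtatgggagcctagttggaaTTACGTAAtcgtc
Rise 1: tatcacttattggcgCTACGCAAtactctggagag
Rise 2: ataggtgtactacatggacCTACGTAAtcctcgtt
Rise 3: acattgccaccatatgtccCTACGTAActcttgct
Fall 1: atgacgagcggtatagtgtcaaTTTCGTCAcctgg
Fall 2: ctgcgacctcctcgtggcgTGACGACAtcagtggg
Fall 3: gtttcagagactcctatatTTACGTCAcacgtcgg

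With limma on log2 intensity minus each array's median, 101 of 40330 probes were called (0.250%), 55 up (0.136%) and 46 down (0.114%); with quantile normalization the split was 200 and 110. Measured rises ran from 0.89 to 3.18 on the log2 scale and falls from -1.15 to -2.78. Leaving out each of the 4 arrays gave 10 calls without 5mC replicate 2, 70 without C replicate 2, 188 without 5mC replicate 1 and 282 without C replicate 1. Intensities include the local background, which was not alike on the 2 forms. The median intensity over the median background was 2.64 and 1.67 on C and 1.31 and 1.33 on 5mC. Its part in these ratios was not tested.

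Rise 1, with CTACGCAA, had intensities of 2105 and 2676 on C and 21502 and 34516 on 5mC, a log2 change of 3.18 (2.38 to 3.98, adjusted p = 5.0e-04). Rise 2, with CTACGTAA, had 3850 and 6594 on C and 44183 and 65528 on 5mC, the last being the ceiling of the scale (log2 change at least 3.08, adjusted p = 6.9e-04). Its place behind Rise 1 is therefore not settled. The brightest probe reached this ceiling on both 5mC arrays and on C replicate 2, so it gives only a bound there. Fall 2, with TGACGACA, went from 26266 and 39826 to 6032 and 6131 (log2 change -2.75, adjusted p = 5.1e-04). Fall 3, with TTACGTCA, went from 17909 and 33509 to 6295 and 3526 (log2 change -2.72, adjusted p = 0.0013).

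Probes of one site moved together. All 15 probes with CTACGTAA were above on both 5mC arrays, where the background is 19.6% above and 18.4% below, and 7 were called. Their median intensity, as a multiple of the array's median, was 1.68 and 1.81 on C and 5.25 and 7.00 on 5mC. All 16 probes with CTACGCAA were above as well, with 1.22 and 1.22 on C and 2.94 and 3.78 on 5mC, and 7 were called. The 8-mer CTACGCAA was not called in Z, but its probes were among the largest rises. For CTAGGTAA, 10 of 13 probes were above and 5 called.

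The 17 probes with TTACGACA were all below, with medians of 2.79 and 3.79 on C and 1.75 and 1.26 on 5mC, and 7 were called. For TTACGTCA 14 of 16 were below and 7 called (4.48 and 4.87 on C, 2.45 and 1.44 on 5mC). For TGACGTCA 18 of 19 were below and 0 called (3.94 and 3.60 on C, 1.94 and 1.23 on 5mC). The 18 probes of TTACGTAA had medians of 7.16 and 6.83 on C and 7.12 and 7.54 on 5mC, with 5 above, 1 below and 0 called.

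**Figure D4:**
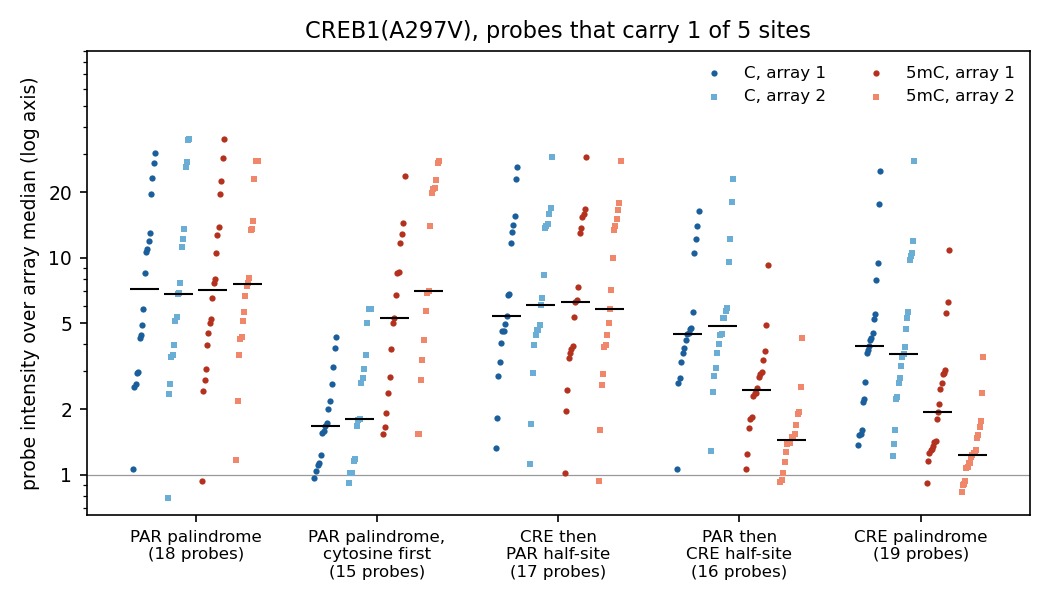
Intensity of every probe that holds one of 5 sites, as a multiple of its array's median intensity (y axis, log scale), on each of the 4 arrays; points are probes sorted by value and black bars are medians. For the PAR palindrome with cytosine first (CTACGTAA) the medians go from 1.68 and 1.81 to 5.25 and 7.00, and for TTACGTAA they stay between 6.83 and 7.54.

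Among the 55 probes that rose, 25 held CT, any 2 bases and GTAA (CTNNGTAA), against 0.682% of all probes, and 31 held CGTAA, against 3.00%. Of the 46 that fell, 29 held TTAC, against 11.8%, and 13 held CGTCA, against 2.96%. Of the fallers 0 held CTNNGTAA or CGTAA, which says little at these shares of all probes. TTAC was held by 8 of the 55 risers, against 11.8%, and GTAA by 3 of the 46 fallers, against 12.1%. CTNNGTAA and CGTAA were picked after the 8-mer values were seen, and those values rest on the same probes. These counts are thus a description. The motifs overlap, and only the newly made strand was searched.

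The makeup of the 100 highest 8-mers of each array changed in the same terms. CGTAA was held by 15 and 14 of 100 on C and by 40 and 60 on 5mC, against 0.392% of all 8-mers. TTAC was held by 29 and 41 on C and by 26 and 15 on 5mC. The CRE cores GTCA or TGAC were in 12 and 17 on C and in 8 and 2 on 5mC. Of the top 100, 67 were shared between the C arrays, 64 between the 5mC arrays and 35 to 55 between a C and a 5mC array.

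There was also a small shift with base composition over all 8-mers. The 6560 8-mers without C had a median difference of -0.274, and those with 1, 2, 3 and 4 C had -0.096, 0.085, 0.245 and 0.358. It did not go on beyond that: 8-mers with 5 C (1319) had 0.356, with 6 C (171) 0.013 and with 7 C (9) -0.109. Without C replicate 1 the median of 8-mers without C was -0.137. Among the probes behind these values, those with 0 to 4 C had a median log2 difference of -0.14 and those with 14 to 19 C one of 0.15. Both groups lay nearer the array median on 5mC. As multiples of it, the first went from 1.29 and 1.18 to 1.18 and 1.08, the second from 0.80 and 0.89 to 0.93 and 0.99. The median Z of 8-mers without C went from 0.72 and 0.51 to 0.35 and 0.15, and with 4 C from -0.62 and -0.44 to -0.33 and -0.17. The part of local background in this was not tested. The part of base composition in the medians of the site lists was not tested.

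The 5mC effect was compared with that in the other proteins by interaction contrasts in the same fit. It differed from that in CREB1 at 124 8-mers (0.190%), higher at 68 (0.104%) and lower at 56 (0.0860%). This split depended on the processing, with 56 higher and 88 lower from log2 foreground, 41 and 2 after normexp, 181 and 250 with quantile normalization, 118 and 177 for the run, and 159 and 37 without CREB1 C replicate 1. From that in CEBPB(V285A) it differed at 2376 (3.65%), higher at 1318 (2.02%) and lower at 1058 (1.62%), a balance that turned to 233 and 599 after normexp and to 522 and 541 with quantile normalization. By the number read as a run, the CEBPB(V285A) arrays on C differ from those on 5mC, while the 4 CREB1(A297V) arrays share 1 number. The 5mC effect in CEBPB(V285A) and whatever that number stands for cannot be told apart. CREB1 had a single 5mC array, assumed to vary like the other groups. These calls do not test that array. TGACGTCA read 213 and 177 on C and 22.4 on 5mC with CREB1, and its drop was smaller with CREB1(A297V) by 155 Z (adjusted p = 0.0018), which started from 23.0 and 23.3. Z-scores of strong sites were far higher in CREB1 and CEBPB(V285A). The part of each array's scale in the differences of such sites was not tested.

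CTACGTAA read 15.0 and 20.3 on C and 16.0 on 5mC with CREB1, and 35.1 and 27.3 on C and 17.4 and 22.3 on 5mC with CEBPB(V285A). Its rise with CREB1(A297V) differed from the change with CEBPB(V285A) by 42.4 (26.1 to 58.8, adjusted p = 0.0014). Against CREB1 the difference of 32.8 was not called (14.5 to 51.1, adjusted p = 0.234). CTACGCAA went from 7.40 and 9.38 to 181 and 198 with CEBPB(V285A), and the effect in CREB1(A297V) was lower (difference of the effects -164, adjusted p = 1.3e-06), though with quantile normalization it was higher. It read 4.67 and 4.19 on C and 104 on 5mC with CREB1. TTACGTAA went from 251 and 232 to 89.3 and 77.2 with CEBPB(V285A), where the CREB1(A297V) arrays overlapped (difference of the effects 152, adjusted p = 1.8e-09), a sign that turned after normexp correction. Of the 26 called 8-mers, 12 also differed in their effect from CEBPB(V285A), 8 of the 19 rises and 4 of the 7 falls. They were chosen by the CREB1(A297V) effect, which is part of that contrast, so this count is a description. From CREB1 1 of the 26 differed, TTACACAT.

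The threshold of the calls fell among small changes. The last 8-mers inside it were CTACCGAG (2.80, adjusted p = 0.0468) and ACCGTAAA (2.93, adjusted p = 0.0482). The first outside besides TGTCGTCA were ATTACTCA (-4.39) and CGCATGCC (2.77), both with an adjusted p of 0.0516.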

How the data were processed

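The 4 arrays are CREB1(A297V) on C and on 5mC, with 2 replicates each; all 21 arrays entered the fits. The authors deposited a Z-score per 8-mer and array, a score whose making is not given in the sources used here. In these 4 arrays it correlated at 0.971 to 0.979 with Z-scores recomputed from the median of foreground minus local background over the probes of an 8-mer, and at 0.745 to 0.884 with those from the foreground alone. The signal files give median intensities of spots and local backgrounds, unsubtracted, per the file headers.

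The matrix names 8-mers as the printed sequence read backwards (r 0.958 to 0.992 over 21 arrays, at most 0.821 for other readings). Their base-by-base complement is therefore the newly made strand, 5′ to 3′, if the printed sequence was the template, which was not tested; otherwise each 8-mer trades places with its reverse complement. Another 409 8-mers without a probe, at 0 in every array, were left out.

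Differences were tested with limma 3.58.1 in R 4.3.3, with 1 coefficient for each of 10 groups, 11 residual degrees of freedom, a mean-variance trend, two-sided p-values, and Benjamini-Hochberg adjustment over all 8-mers, strand pairs or probes. Intervals are 95%. An exact permutation test of 2 against 2 arrays cannot go below p = 0.333. Named 8-mers were 11 fixed sites, the calls if at most 30, the 10 with the highest mean on each form, the single-base changes of the PAR palindrome and up to 5 called each way per other contrast. Sites, lists and names were chosen with earlier results of these data known, and lists marked so in the text were made after these values were seen; CTATGTAA, CTCCGTAA, TGACGACA, TGTCGTCA and the 8-mers at the threshold were named after their values were seen. On simulated data of the same size, the 8-mer fit recovered 26% of changes of 2 Z, 90% of 5 and 98% of 10, with 9 false calls, and the probe fit 30% of log2 changes of 1 and 98% of 2. Alternatives were the scale, the background correction, the normalization, the probe minimum, the arrays in the fit, the replicate block and each array left out.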

Additional observations from a re-analysis of the deposited data

Results flagged for a closer look

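The effect of 5mC differed between CREB1(A297V) and another protein, by the interaction test, at 124 8-mers against CREB1 (68 higher, 56 lower) and at 2376 against CEBPB(V285A) (1318 higher, 1058 lower). After normexp these became 41 and 2 against CREB1 and 233 and 599 against CEBPB(V285A). Against CREB1, which has 1 array on 5mC, the effect of CREB1(A297V) was higher at CRE-type 8-mers: TGACGTCA by 155, TACGTCAC by 88.7, ACGTCACG by 57.4, GACGTCAC by 53.9 and CACGTCAT by 39.7. TACGTCAC read 106 and 93.2 on C and 4.81 on 5mC with CREB1, and 7.44 and 9.16 on C and 3.10 and 1.19 on 5mC with CREB1(A297V), so the larger drop was in the protein with the higher start. The effect was lower at 8-mers with CGCAA: GCGCAATA by -29.4, CGCAATAA by -28.0, CCCGCAAT by -23.6, CGCAATAG by -21.5 and CACGCAAC by -20.7. CGCAATAA read 0.145 and 0.259 on C and 29.6 on 5mC with CREB1, and 0.918 and 1.202 on C and 1.84 and 2.95 on 5mC with CREB1(A297V).

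Against CEBPB(V285A), whose C and 5mC arrays carry separate numbers read as runs, the effect was higher at TTACGTAA by 152, TTACGTCA by 130, TGACGTAA by 129, ATGACGTA by 126 and TACGTCAC by 121. It was lower at ACGCAATC by -197, TACGCAAT by -173, CTACGCAA by -164, TGACGCAA by -163 and ACGCAATA by -162. TACGCAAT read 1.40 and 2.22 on C and 10.5 and 11.9 on 5mC with CREB1(A297V), without a call. Of the 26 8-mers called between 5mC and C, 1 also differed from CREB1 (TTACACAT, -7.74) and 12 from CEBPB(V285A). CTACGTAA was among the 12, with an effect higher by 42.4.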

How the results depend on the processing

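All 26 called 8-mers kept their direction in every alternative, and 213 of their 442 alternative values lost the call. The count of 26 became 1 on the asinh scale, 72 with Z-scores from log2 foreground, 1 after normexp, 222 with quantile normalization, 45 with at least 8 probes, 166 with the replicate block, 0 with the run's arrays only, 1 with the 4 arrays only, 1536 with the 4 arrays and the block, and 68 with Z-scores from the foreground (added after seeing the data); single left-out arrays gave 5 to 86. The strand count of 10 became 0 (3452 at an unadjusted p under 0.05), 21, 1 and 158 on those first 4 scalings, 58 with the replicate block, 19 for the run, 134 for the 4 arrays, 896 with their block, 31 from the foreground, and 1 to 31 with an array left out. The probe count of 101 became 668 after normexp, 310 with quantile normalization and 10 to 282 with an array left out. The count against CREB1 (124) became 3 on the asinh scale, 43 after normexp, 431 with quantile normalization, 222 without a trend, 295 for the run and 42 to 196 with an array left out. That against CEBPB(V285A) (2376) became 311, 1381, 832 and 1063 on the asinh, log2, normexp and quantile scales. Same-numbered replicates deviated together (correlation 0.19), but 2 pairs do not settle a pairing. The cause of these moves was not tested.

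Signs turned at sites that were not called between 5mC and C. TTACGTAA became 2.74 (log2), 0.267 (normexp), 0 (quantile), and 3.02 and 9.97 (recomputed with and without background), TTACGCAA -0.146 (normexp) and -1.10 (quantile), and TGACGTAA -4.26 (quantile). With single arrays left out, TTACGTAA ran from -13.7 to 1.57, TGACGTAA from -2.34 to 7.87, TTACGCAA from -1.28 to 3.85, TGACGCAA from -0.272 to 2.19, TGATGCAA from -0.255 to 1.46 and TTGCATCA from -0.937 to 0.825. Against CEBPB(V285A), TTACGTAA became -0.664 and TTACGTCA -0.0200 after normexp, and CTACGCAA 5.34 with quantile normalization.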
